A study of Mus musculus with 12 samples.

Results

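CpG-poor DNA between genes was examined in 1647 tiles of the mouse genome, each a fixed window of 1 kb in build mm10 (GRCm38) on chromosomes 1 to 19. A tile was included if it held 10 or fewer CpGs, lay outside every RefSeq gene and was 10 kb or more from any gene's 5′ end. It also needed 3 or more cytosines read at least 10 times in all 6 methylation libraries, and a mean methylation level above 70% over the 3 Week 1 libraries. These tiles were 2.31% of the 71230 tiles with 3 or more such cytosines. Without the rule on the level, 2327 tiles had the same structure, and 70.8% of them passed it. They are called the any-level tiles here. Because the level rule used the Week 1 values, the Week 3 change of the 1647 tiles is described without a test. Tests were made on the any-level tiles, or in libraries that a rule on 1 Week 1 library did not use. The latter are not free of the choice by week.

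The study followed articular chondrocytes of C57BL/6J mice aged 5 to 6 days, taken from the cartilage of femoral heads and tibial plateaus. All cells were first expanded as monolayers in DMEM/F12 with 10% FBS and Pen/Strep. They were then packed into pellets, a 3-dimensional culture used to bring on hypertrophy, in the same medium with ascorbic acid and ITS. Pellets were taken at Week 1 (day 7) or Week 3 (day 21), with 3 libraries per week for enhanced reduced representation bisulfite sequencing (ERRBS) and 3 for RNA. No untreated or non-pellet group enters these comparisons, and whether a replicate was a culture, an animal or a pool of animals is not stated. The p-values below therefore measure only the spread between these libraries, which may be technical.

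In somatic cells most CpGs far from promoters carry a methyl group, and the maintenance enzyme Dnmt1 copies the mark to the new strand after each division. CpG-poor stretches between genes are the part of the genome where this copying is known to lag in dividing cells, which makes them partly methylated over long domains. CpGs flanked by A or T on both sides are known to lose the mark most readily there. Bisulfite treatment turns unmethylated cytosines into T in the reads, so the methylation level of a cytosine is the percent of its reads that still show C. ERRBS reads fragments cut by MspI at CCGG, so CpG-poor DNA is seen mainly next to such a site.

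The sequences of 8 tiles are shown because they let a reader see how few CpGs carry each value. They are the 4 largest falls, the 2 largest rises and the 2 tiles nearest the median change, among 207 tiles with 4 or more cytosines and a median coverage of 20 or more reads in every library. Falls and rises were taken only where the weeks did not overlap, and values for all 8 are given further on. Each is the forward strand of mm10, 5′ to 3′, around the measured cytosines, and capitals mark CpGs measured in all 6 libraries on one strand or both.
Fall 1, chr10:109539496-109539594: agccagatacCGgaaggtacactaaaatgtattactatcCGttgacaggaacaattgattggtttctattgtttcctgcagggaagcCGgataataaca
Fall 2, chr3:117459868-117459955: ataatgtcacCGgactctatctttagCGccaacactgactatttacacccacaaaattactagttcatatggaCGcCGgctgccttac
Fall 3, chr5:82287289-82287387: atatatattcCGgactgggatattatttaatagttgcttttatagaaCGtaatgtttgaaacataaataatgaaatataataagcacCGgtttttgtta
Fall 4, chr5:101023701-101023837: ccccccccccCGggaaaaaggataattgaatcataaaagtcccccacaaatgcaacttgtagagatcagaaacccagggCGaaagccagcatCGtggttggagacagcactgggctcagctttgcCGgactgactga
Rise 1, chr17:54017243-54017360: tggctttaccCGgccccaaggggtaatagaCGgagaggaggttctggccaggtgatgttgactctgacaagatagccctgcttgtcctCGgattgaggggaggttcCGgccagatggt
Rise 2, chr1:121749008-121749056: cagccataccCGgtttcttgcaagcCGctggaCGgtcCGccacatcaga
Near median 1, chr5:62501272-62501506: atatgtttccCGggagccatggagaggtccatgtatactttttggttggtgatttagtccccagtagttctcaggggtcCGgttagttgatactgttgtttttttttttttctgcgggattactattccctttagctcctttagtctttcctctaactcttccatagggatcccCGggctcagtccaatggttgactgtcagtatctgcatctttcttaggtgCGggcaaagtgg
Near median 2, chr14:63969737-63969831: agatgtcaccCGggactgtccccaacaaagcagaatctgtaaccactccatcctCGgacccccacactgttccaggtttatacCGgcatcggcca
The stretch of near median 1 holds 4 of its 5 measured CpGs. Each of the 8 stretches starts 10 bases before a measured CpG that lies in CCGG, the recognition site of MspI.

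At the measured cytosines of the 1647 tiles, the median coverage was 65, 72 and 18 reads in Week 1 replicates 1, 2 and 3, and 38, 25 and 30 reads in Week 3 replicates 1, 2 and 3. Week 3 replicate 2 stood apart from the other 5 libraries. Its levels of the any-level tiles scattered around the mean of the other 5 with an SD over tiles of 13.0 percentage points, against 5.24 to 8.34 points for the others. Among its cytosines of the any-level tiles with 20 to 40 reads, 38.1% stood at exactly 100%, against 5.98% to 14.6% elsewhere. It listed 96 cytosines of the 1647 tiles at exactly 0%, against 2 to 9 in the other libraries. At 535 CpGs read on both strands, its strands differed by over 50 points at 62 CpGs (11.6%), against 7 to 15 CpGs in the others. The changes of the tile sets and classes below are therefore given with and without this library. In the RNA libraries, which are separate from the ERRBS libraries, the summed level of 8 chondrocyte markers ran from 18939 to 33628 CPM (counts scaled to the library total) at Week 1 and from 32166 to 35477 CPM at Week 3. The 5 counted of 6 macrophage markers (Cd68 was not paired with a count) summed to 70.04, 55.2 and 23.8 CPM at Week 1 and to 46.2, 21.4 and 7.71 CPM at Week 3. All 4 adipocyte markers were detected. They summed to 34.7, 172 and 52.7 CPM in Week 1 replicates 1, 2 and 3 and to 15.5, 86.7 and 26.2 CPM in the Week 3 replicates. Both the macrophage and the adipocyte sum were thus lower at Week 3 at each replicate number. The 4 endothelial markers summed to between 0.937 and 1.57 CPM, with Cdh5 listed at 0 in 2 libraries. The part of these cells in the methylation values was not tested.

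The 1647 tiles held 5997 measured cytosines at 5462 CpGs, a median of 3 per tile and at most 10. Exactly 3 cytosines were measured in 963 tiles (58.5%), so most tile values rest on the minimum. The median tile had 8 CpGs and a GC content of 43.1%, against 21 CpGs and 50.3% over all 71230 tiles. It lay 36.4 kb from the nearest 5′ end, and the farthest lay 593.3 kb away. Genes covered a median of 39.4% of the 1 Mb around these tiles and 62.9% around all tiles. Soft-masked sequence, which marks repeats in the assembly, made up a median of 33.3% of a tile, against 13.1% over all tiles. Chromosomes held between 40 and 139 of the tiles. The rule fixed the CpG number, the distance and the gene overlap, but it did not use GC content or repeats.

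These tiles are a small and selected sample of CpG-poor DNA. Of 745542 mm10 tiles with the same CpG number and position, 0.312% had 3 or more measured cytosines. The motif CCGG, which reads the same on both strands, was present in 99.8% of the 1647 tiles, in 24.3% of all genome tiles of this structure and in 37.4% of all genome tiles of this length. The motif search took only the exact letters. A CpG flanked by A or T on both sides occurred in 81.3% of the 1647 tiles and in 81.1% of genome tiles of this structure. As a share of CpGs the flanked context was rarer in the measured tiles, with 21.1% of their CpGs against 35.5%. The measured tiles thus differ from the DNA they were drawn from in the makeup of their CpGs.

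Methylation of the 1647 tiles was slightly lower at Week 3 in every library. Their mean level was 83.9%, 84.3% and 84.2% in Week 1 replicates 1, 2 and 3. It was 82.6%, 82.9% and 82.8% in Week 3 replicates 1, 2 and 3. The weeks did not overlap. The mean over libraries went from 84.12% ± 0.21 (SD, n = 3) to 82.78% ± 0.14 (SD, n = 3), a difference of -1.34 percentage points, or -1.41 points without Week 3 replicate 2. The tiles were chosen by their Week 1 level, so neither the missing overlap nor the size is a test, and values under other choices are given below.

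**Figure D1:**
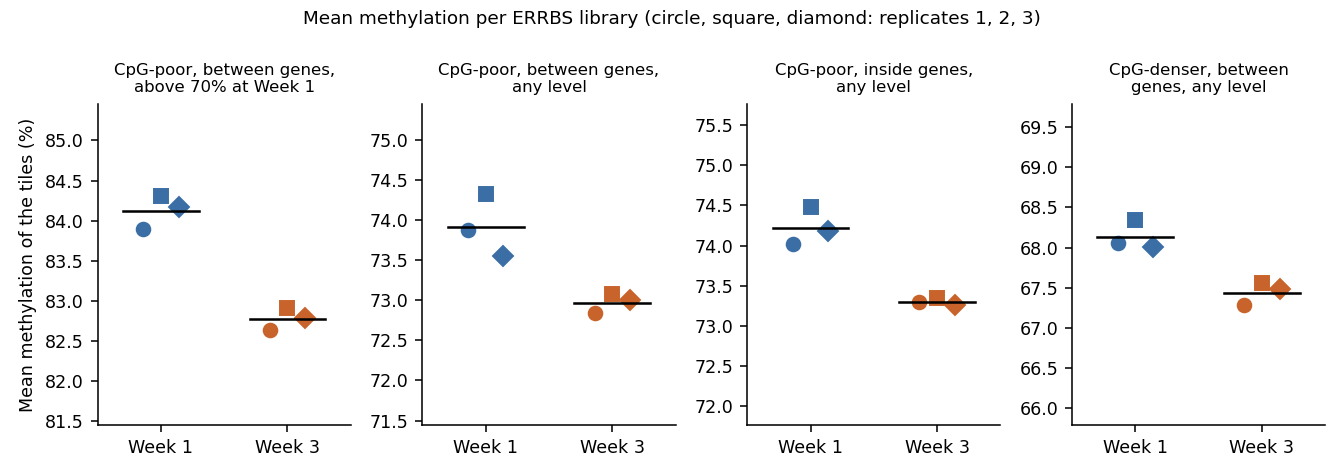
Mean methylation level (%) of each ERRBS library at Week 1 (blue) and Week 3 (orange), for the 1647 tiles and 3 comparison sets, with circles, squares and diamonds for replicates 1, 2 and 3 and a bar for the mean of each week. Each panel has its own range of levels and does not start at 0, and in all 4 sets every Week 3 library lies below every Week 1 library.

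Single tiles moved far more than the mean did. The middle 50% of the 1647 changes lay between -4.45 and 2.33 points, with a median of -1.06 points and extremes of -33.9 and 16.6 points. In all, 979 tiles (59.4%) were lower at Week 3, where 53.3% of all 71230 tiles were. All 3 Week 3 libraries lay below all 3 Week 1 libraries in 125 tiles (7.59%), where 6.45% of all tiles did so. The opposite order held in 51 tiles (3.10%), where 3.9% of all tiles showed it. A fall of over 10 points was seen in 99 tiles (6.01%, and 4.12% of all tiles) and a rise of over 10 points in 34 (2.06%, and 2.09% of all tiles). Of the any-level tiles, 6.49% fell and 3.31% rose by over 10 points. In CpG-poor tiles inside genes these shares were 6.51% and 2.88%. They were 5.71% and 2.76% in tiles between genes with more than 10 CpGs. All 71230 tiles include 8792 CpG-dense tiles holding a 5′ end, with a mean of 1.52% at Week 1, which have little room to fall. At Week 3, 153 of the 1647 tiles (9.29%) stood at 70% or lower, while 60 any-level tiles had crossed the other way. The weeks were also compared tile by tile over all 71230 tiles with a quasi-binomial model of methylated and unmethylated reads. At an adjusted p (Benjamini-Hochberg) under 0.05 it called 0 of these tiles (0%), and limma on the mean level of each tile also called 0. Without Week 3 replicates 1, 2 or 3 it called 2, 5 or 3 tiles, with 0 of the 1647 among them each time. At an unadjusted p under 0.05 the quasi-binomial model found 4551 tiles and limma 3273. Of the 1647 tiles, 71 were among the 4551, 51 of them lower at Week 3. Both counts are smaller shares than over all 71230 tiles, of which 4.02% were lower at that threshold. With 3 libraries per week the tile test can miss real changes of single tiles, so 0 calls do not show that no tile changed.

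The spread of the tile changes was close to what the disagreement between libraries of one week gives. The SD of the change over the 1647 tiles was 5.68 points. Counting error of the reads alone gives 2.83 points, and the spread between libraries of the same week within a tile gives 5.64 points. Without Week 3 replicate 2 the SD was 4.92 points, and the spread within weeks gives 4.72 points. Neighbouring tiles did not move together to any visible degree: over 169 neighbouring pairs within 100 kb, Pearson's r of the change was 0.029, a description over tiles that share their libraries. Of 187 windows of 10 Mb with 5 or more of the tiles, 145 (77.5%) had a lower mean at Week 3, with window means from -8.09 to 5.07 points. The level rule favours such a fall. In the any-level tiles, 159 of 226 such windows (70.4%) were lower. The individual windows hold few tiles, and their means were not tested.

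**Figure D2:**
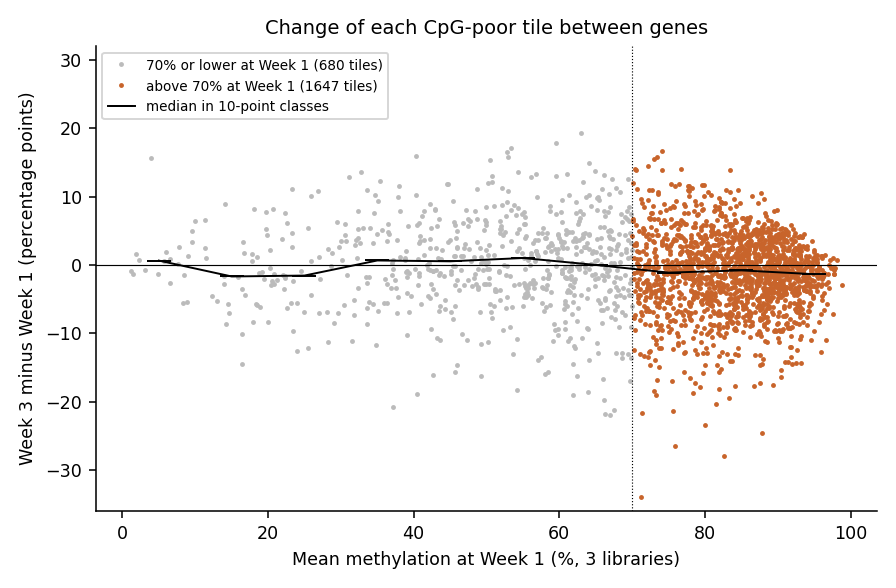
Week 3 minus Week 1 change (percentage points) of each any-level tile against its Week 1 mean level (%), with the 1647 tiles above 70% in orange, the 680 others in grey and the median of each 10-point class as a black line. The class medians lie below 0 in the 3 classes above 70% and in the classes from 10% to 30%, which hold 32 and 45 tiles, while single tiles scatter from -33.9 to 19.3 points.

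The size of the difference depended on which libraries chose the tiles. Tiles at 70% to 80% at Week 1 changed by -1.21 points (483 tiles), those at 80% to 90% by -1.13 points (778 tiles) and those above 90% by -1.94 points (386 tiles). Without Week 3 replicate 2 these changes were -1.01, -1.27 and -2.21 points. Around the threshold, the 74 tiles at 70% to 72% changed by -1.31 points and the 45 tiles at 68% to 70% by -0.668 points, which became -1.11 and 0.124 points without Week 3 replicate 2. With the rule applied to the mean of all 6 libraries, the 1612 tiles that passed changed by -0.757 points, and the weeks overlapped because Week 3 replicate 2 lay within the range of Week 1. With the rule applied to the Week 3 mean, the change of the 1554 tiles was -0.166 points. Leaving Week 3 replicate 2 out of both the rule on the mean and the change gave -1.12 points.

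A rule on 1 Week 1 library alone keeps the other 5 libraries out of the choice. The tiles were still chosen as high at Week 1, so what the Week 1 libraries share can raise the other Week 1 libraries too. The test below is thus not free of the level rule, and the mirrored rule on 1 Week 3 library was not run. Chosen on Week 1 replicate 1, 1633 tiles had mean levels of 84.2% and 83.7% in Week 1 replicates 2 and 3, and of 82.7%, 82.9% and 82.8% in the Week 3 libraries. The change was -1.11 points. Chosen on replicate 2, 1654 tiles changed by -0.813 points, and chosen on replicate 3, 1552 tiles changed by -1.22 points. In each of the 3 choices no Week 3 library overlapped a Week 1 library. The two-sided exact permutation test gave p = 0.1 each time, the smallest p that 2 against 3 libraries allow, so this design cannot pass 0.05. Without Week 3 replicate 2 the changes were -1.17, -0.943 and -1.22 points. The 3 choices share their Week 3 libraries and most of their tiles, so they are not independent of each other.

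**Figure D3:**
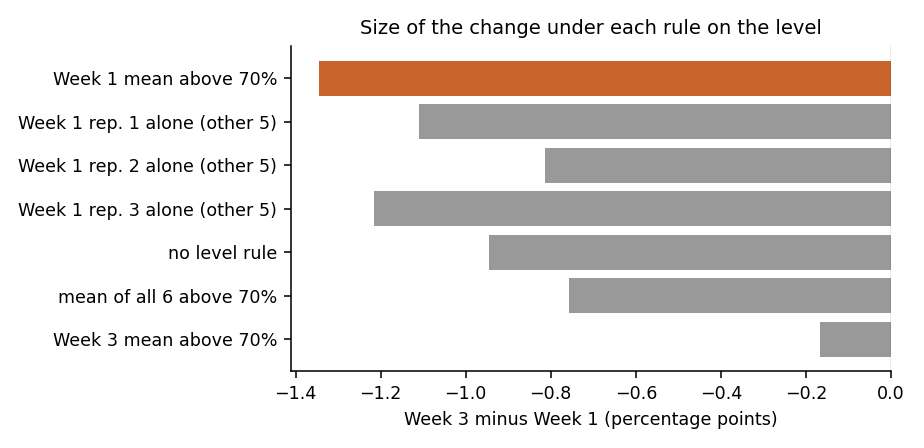
Week 3 minus Week 1 change (percentage points, bars from 0) of CpG-poor tiles between genes under 7 rules on the methylation level, with the rule used here in orange. The bars run from -1.34 points for the Week 1 rule to -0.166 points for the Week 3 rule, and all lie below 0.

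The any-level tiles, chosen without regard to methylation, were also lower at Week 3. Their mean level was 73.9%, 74.3% and 73.6% in Week 1 replicates 1, 2 and 3, and 72.8%, 73.1% and 73.0% in the Week 3 replicates. No library overlapped between weeks. The means were 73.91% ± 0.38 and 72.97% ± 0.12 (SD, n = 3 each), a difference of -0.944 points, and -0.997 points without Week 3 replicate 2. The two-sided exact permutation test over the libraries gave p = 0.1, the smallest value that 3 against 3 allow, and the value adjusted over the family of 5 comparisons (Benjamini-Hochberg) was 0.333. The separation did not hold under every setting: at cytosines covered 20 or more times the change was -1.003 points (exact permutation p = 0.2, 363 tiles), and without cytosines in CCGG it was -0.624 points (p = 0.4, exact permutation, 250 tiles). With 5 or more measured cytosines it was -0.483 points (p = 0.1, exact permutation, 333 tiles). The 680 any-level tiles at 70% or lower at Week 1 changed by 0.024 points, or 0.0085 points without Week 3 replicate 2, with overlapping weeks. These tiles were also chosen by the Week 1 level, in the direction opposite to the 1647 tiles, so this change carries no test.

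Two-sided exact permutation tests compared the any-level tiles with the sets most like them. CpG-poor tiles inside genes, 2120 in number, went from 74.22% ± 0.23 to 73.30% ± 0.04 (SD, n = 3 each), a change of -0.923 points, or -0.943 points without Week 3 replicate 2. The change between genes minus that inside genes was -0.022 points (p = 1, exact permutation, and 1 after adjustment), a difference whose sign turned when single libraries were left out. The 9667 tiles between genes with more than 10 CpGs changed by -0.695 points, or -0.753 points without Week 3 replicate 2. The change of the any-level tiles minus that of these denser ones was -0.250 points (exact permutation p = 0.2, adjusted 0.333). Over all 71230 tiles the mean went from 50.08% to 49.63%, a change of -0.450 points, or -0.517 points without Week 3 replicate 2. CpG-dense tiles holding a 5′ end stayed near the floor, at 1.52% ± 0.03 and 1.63% ± 0.25 (SD, n = 3 each; exact permutation p = 0.8). A fall particular to CpG-poor DNA between genes was not shown by these tests, which cannot reach an adjusted p under 0.05.

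By chromosome, the mean of the 1647 tiles was lower at Week 3 on 19 of 19 chromosomes, and on 16 when the level rule used the mean of all 6 libraries. All Week 3 libraries lay below all Week 1 libraries on 10 of the 19, and in the any-level tiles 18 chromosomes were lower and 8 showed no overlap. The chromosome means of the 1647 tiles had an SD of 0.476 points. In the any-level tiles the largest falls were on chromosomes 2, 16 and 6, with -1.82, -1.47 and -1.32 points. The tiles above 70% at Week 1 changed there by -1.71, -1.91 and -1.62 points. The smallest falls were on chromosomes 8 and 11, with -0.372 and -0.297 points (-0.846 and -1.15 points above 70%). On chromosome 12 the any-level tiles changed by 0.071 points and the tiles above 70% by -0.057 points. Without Week 3 replicate 2 the order was another one: the any-level changes were -1.04, -1.19 and -1.27 points on chromosomes 2, 16 and 6, -0.547 and -0.811 points on chromosomes 8 and 11, and -0.382 points on chromosome 12. The largest falls were then on chromosomes 18 and 10, with -1.70 and -1.69 points.

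The order of the chromosomes depended on single libraries. On chromosome 12 the 92 tiles above 70% had 84.4%, 84.7% and 83.2% in Week 1 replicates 1, 2 and 3, and 83.3%, 85.4% and 83.3% in the Week 3 replicates. Week 3 replicate 2 was the highest of the 6 there, and without it the change was -0.755 points. On chromosome 4 the same library was the lowest: the 100 tiles had 84.1%, 84.5% and 85.3% at Week 1 and 83.7%, 80.9% and 83.6% at Week 3. The change of -1.86 points became -0.936 points without it. On chromosome 16 the 63 tiles had 84.4%, 85.2% and 85.5% at Week 1 and 83.0%, 83.5% and 82.8% at Week 3, and the change was -1.91 points with and -2.09 points without that library. With limma on the 19 chromosome values of each library, taken relative to their mean, 0 of 19 chromosomes differed from the mean change at an adjusted p (Benjamini-Hochberg) under 0.05, and 0 at an unadjusted p under 0.05. The smallest adjusted p was 0.897. For chromosome 2 the relative change was -0.903 points, -0.079 points without Week 3 replicate 2 and -1.60 points without Week 3 replicate 1 (limma adjusted p = 0.0962).

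**Figure D4:**
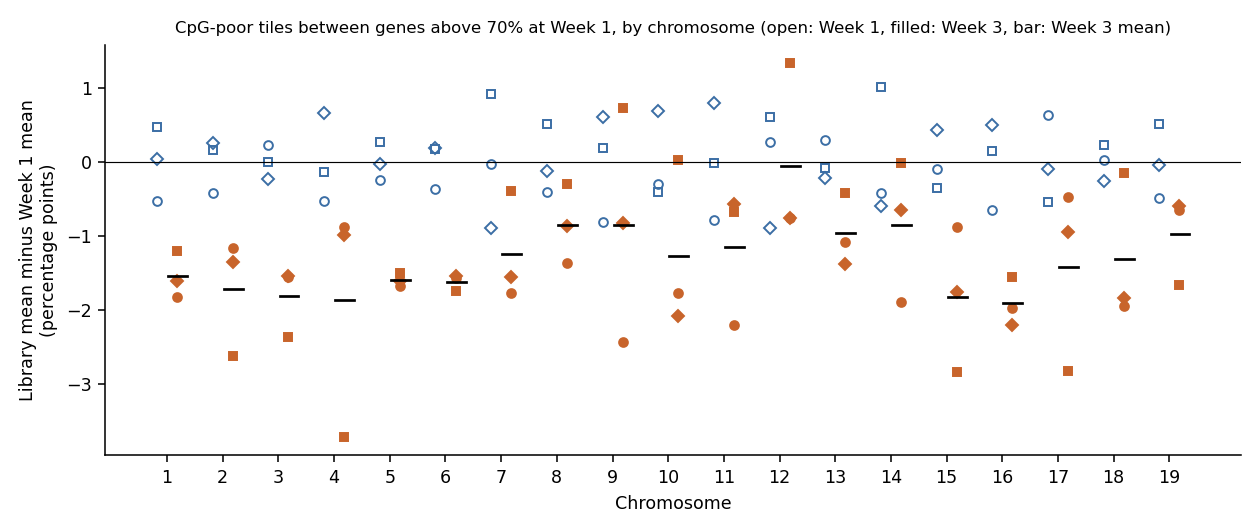
Mean level of the 1647 tiles in each library minus the Week 1 mean of the same chromosome (percentage points), for chromosomes 1 to 19, with open blue symbols for Week 1, filled orange symbols for Week 3, circles, squares and diamonds for replicates 1, 2 and 3, and a bar for the Week 3 mean. All 19 bars lie below 0, and the squares of Week 3 replicate 2 are the highest or lowest point on many chromosomes, such as 12 and 4.

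The mean change was larger in gene-poor than in gene-rich surroundings, by less than the test can separate. The any-level tiles were split into 4 classes of equal size at 21.3%, 39.9% and 56.2% of the surrounding 1 Mb in genes. From the gene-poorest to the gene-richest class, the tiles above 70% changed by -1.70, -1.42, -1.20 and -1.04 points (421, 423, 405 and 398 tiles). Without Week 3 replicate 2 the 4 changes were -1.89, -1.40, -1.35 and -0.978 points. The any-level tiles changed by -1.19, -1.21, -0.708 and -0.668 points in the same order, and by -1.17, -1.20, -0.955 and -0.660 points without that library. In the any-level tiles, the gene-poorest class lay above the gene-richest one by 2.47, 3.12 and 2.12 points in the Week 1 libraries and by 1.71, 2.01 and 2.41 points in the Week 3 libraries. The weeks overlapped in this difference. It changed by -0.527 points (two-sided exact permutation p = 0.2, adjusted 0.333), and by 0.490 points (p = 0.6) at cytosines covered 20 or more times, where 363 any-level tiles were left. With a 200 kb window the same test gave -0.774 points (exact permutation p = 0.2), and with reads pooled in each tile -0.592 points (p = 0.3). With classes by the number of 5′ ends it gave -0.645 points (exact permutation p = 0.1, the smallest possible, unadjusted). Over single tiles the relation was faint: Spearman's rho between the change and the gene share was 0.054 over the 1647 tiles, which share their libraries.

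**Figure D5:**
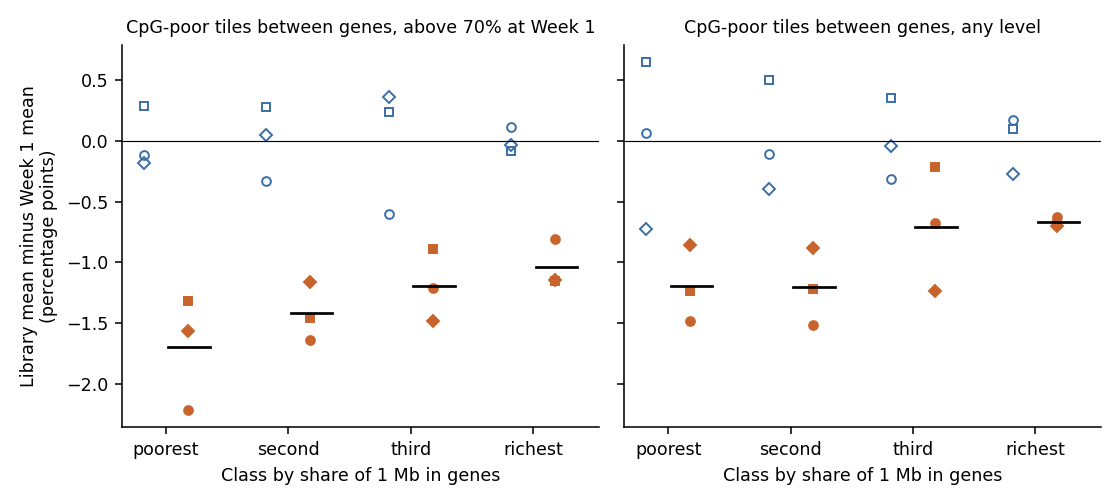
Mean level of each library minus the Week 1 mean of the same class (percentage points), for 4 classes by the share of the surrounding 1 Mb in genes, with open blue symbols for Week 1, filled orange symbols for Week 3, circles, squares and diamonds for replicates 1, 2 and 3, and a bar for the Week 3 mean. The bars lie between -1.70 and -1.04 points in the tiles above 70% at Week 1 (left) and between -1.21 and -0.668 points in the any-level tiles (right).

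Other measures of the surroundings gave similar orders with exceptions. By the number of RefSeq gene 5′ ends in the surrounding 1 Mb, the tiles above 70% changed by -1.79 points with 1 to 5 ends (273 tiles), -1.65 points with 6 to 10 (361 tiles), -1.15 points with 11 to 20 (564 tiles) and -1.03 points with over 20 (446 tiles). Without Week 3 replicate 2 these changes were -1.82, -1.73, -1.43 and -0.847 points. Only 3 tiles had no 5′ end in this window, all 500 kb or more from one, and they changed by -6.83 points, or -6.76 points without that library. The 6 any-level tiles of this kind changed by -3.20 points (exact permutation p = 0.4), or -1.58 points without Week 3 replicate 2. Distance to the nearest 5′ end gave no steady order: the change was -1.30 points at 10 to 20 kb, -0.985 points at 20 to 50 kb, -1.81 points at 50 to 100 kb and -1.52 points at 100 to 500 kb. Without that library the 4 values were -1.35, -1.11, -1.64 and -1.80 points, so the last 2 changed places. Over the 19 chromosomes, the change and the number of genes per Mb had Pearson's r = 0.24 and Spearman's rho = 0.37, a description over chromosomes that share the same 6 libraries.

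Expression of the nearest gene separated the tiles little. Counts of the RNA libraries were scaled to CPM, and the nearest counted gene lay a median of 68.3 kb away. This gene was below 1 CPM at Week 1 for 52.2% of the 1647 tiles, while 41.3% of the 21980 counted genes on these chromosomes were. The 859 tiles next to such a gene changed by -1.42 points, and the 788 others by -1.27 points, or -1.51 and -1.31 points without Week 3 replicate 2. In the any-level tiles the changes were -1.08 and -0.806 points, or -1.13 and -0.862 points without it. The difference was not tested.

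Over the measured cytosines, sequence context went with the level more than with the change. Cytosines were averaged over all tiles, so contexts were not compared inside single tiles. The 658 measured cytosines of the 1647 tiles with A or T on both sides of the CpG averaged 77.4% at Week 1 and 76.3% at Week 3. The 5339 others averaged 84.9% and 83.5%. The flanked cytosines were thus lower in both weeks, and their change of -1.07 points was near the -1.37 points of the others (-1.49 and -1.37 points without Week 3 replicate 2). In the any-level tiles the change of flanked minus other cytosines was 0.181 points (two-sided exact permutation p = 0.9, adjusted 1), which turned to -0.339 points without Week 3 replicate 2. Cytosines inside CCGG changed by -1.50 points (3372 cytosines) and those outside it by -1.13 points (2625), and without Week 3 replicate 2 by -1.39 and -1.37 points. Forward and reverse strand cytosines changed by -1.30 and -1.37 points, or -1.26 and -1.50 points without it. Soft-masked cytosines changed by -1.54 points and others by -1.25 points, or -1.39 and -1.38 points without it. Tiles with 5 or fewer CpGs changed by -1.77 points (152 tiles), those with 6 to 8 by -1.50 points (698 tiles) and those with 9 or 10 by -1.13 points (797 tiles), or -2.06, -1.68 and -1.06 points without it. By the lowest coverage of the 6 libraries, the 799 deeper tiles changed by -1.39 points and the 848 shallower ones by -1.30 points, or -1.44 and -1.38 points without that library. None of these classes in the 1647 tiles carries a test.

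The nearest genes of the 4 largest falls were noncoding RNA genes, a pseudogene or, for 1 tile, protein-coding genes with few counts. Fall 1 (chr10:109539001-109540000), between Gm23041 and Gm40757, had 69.8%, 68.3% and 81.7% in Week 1 replicates 1, 2 and 3 and 66.6%, 41.5% and 54.6% in the Week 3 replicates. Its change of -19.1 points was -12.7 points without Week 3 replicate 2, the lowest library. The middle CpG of the 3 in capitals was read on both strands in that library: the forward cytosine stood at 53.4% of 58 reads (95% Wilson interval 40.8% to 65.7%) and the reverse one at 0 of 14 reads, which allows up to 21.4%. Such intervals cover counting error only, since reads are not independent molecules.

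Fall 2 (chr3:117459001-117460000) lay 98.1 kb from Plppr4 and 114.6 kb from Plppr5, which encode membrane proteins related to lipid phosphatases. It had 75.1%, 75.7% and 84.2% at Week 1 and 69.3%, 43.6% and 65.9% at Week 3, a change of -18.7 points, or -10.7 points without Week 3 replicate 2 and -7.16 points at cytosines covered 20 or more times. Its second CpG stood at 0 of 19 reads on the forward strand in that library and at 79.5% of 39 reads on the reverse strand. Plppr4 had means of 0.044 CPM at Week 1 and 1.02 CPM at Week 3, and Plppr5 of 0.109 and 0.275 CPM. These differences were not tested.

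Fall 3 (chr5:82287001-82288000) had 89.1%, 86.7% and 86.9% at Week 1 and 85.9%, 48.7% and 76.6% at Week 3. Its change was -17.2 points, or -6.34 points without Week 3 replicate 2, where its middle CpG again differed between strands, with 66.7% of 30 forward reads and 0 of 13 reverse reads. Genes cover 4.35% of the 1 Mb around it, and the nearest are the lncRNA 1700031L13Rik and the pseudogene Rpl7-ps7. Fall 4 (chr5:101023001-101024000) had 74.7%, 65.1% and 77.0% at Week 1 and 62.8%, 53.3% and 62.4% at Week 3. It changed by -12.8 points, and by -19.4 points at cytosines covered 20 or more times. The change was -9.69 points without Week 3 replicate 2, so part of the fall remained without that library, as in falls 1, 2 and 3. The nearest genes are the tRNA gene n-TDgtc1, 30.1 kb away, and the lncRNA Gm36851. Its last 3 CpGs, read on the reverse strand, changed by -23.8, -22.9 and -11.6 points, while the first changed by 7.11 points.

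The rises were smaller than the falls. Rise 1 (chr17:54017001-54018000), between the pseudogene Gm5684 and the choline transporter gene Slc5a7, had 77.2%, 77.0% and 81.2% at Week 1 and 87.3%, 89.4% and 82.1% at Week 3. Week 3 replicate 2 was the highest library. The change of 7.82 points was 6.26 points without it, and most of it stood at 1 cytosine that changed by 26.6 points. Rise 2 (chr1:121749001-121750000) was 92.8% soft-masked and lay 181.0 kb from Ddx18, a helicase gene of ribosome assembly. It had 85.3%, 85.5% and 66.3% at Week 1 and 86.2%, 85.6% and 87.7% at Week 3. Week 1 replicate 3 alone was low, and without it the change of 7.49 points was 1.11 points. The adjusted p of the quasi-binomial test over all 71230 tiles was between 0.772 and 0.906 for these 6 tiles.

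Near median 1 and near median 2 show a usual tile. Near median 1 (chr5:62501001-62502000) had 78.9%, 83.9% and 85.2% at Week 1 and 81.6%, 82.0% and 81.4% at Week 3, a change of -1.06 points inside the Week 1 range. Its 5 cytosines changed by between -8.92 and 7.14 points. Near median 2 (chr14:63969001-63970000), 1.12 kb from the nearest gene, 4930578I06Rik, and 18.3 kb from the transcription factor gene Sox7, had 76.1%, 81.3% and 81.2% at Week 1 and 79.4%, 78.2% and 78.0% at Week 3, a change of -0.994 points. In both tiles the weeks overlapped, and the change was smaller than the differences among their own cytosines.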

How the data were processed

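Per the labels, CpG methylation was measured by ERRBS and RNA by poly A RNA-seq in the same 2 groups, 3 libraries each. The authors deposited, per the file headers, each CpG cytosine, its coverage (a read count) and the percent of its reads showing C or T, from 10 reads upward, strands separate. Each library listed 1220867 to 2131385 cytosines. RNA values were the authors' deposited counts per transcript. The submitters' processing notes name mm10, CASAVA 2.17, STAR, featureCounts and Bismark, and the removal of duplicate reads is not given in the sources used here.

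A tile's level was the mean of its shared cytosines, and a set's level in a library the mean of its tiles. All 720674 shared cytosines lay at CpGs of the RefSeq GRCm38.p6 sequence, which also gave genes, 5′ ends and printed sequences. Sets were compared by two-sided exact permutation over libraries (Python 3.11.15, numpy 2.4.6, scipy 1.17.1). Tiles were tested with a quasi-binomial model on summed reads, its dispersion moderated with limma 3.58.1 in R 4.3.3, and chromosomes with limma. Both were also run on simulated data, where the tile test missed most of the smaller falls put in and made some false calls. The pseudocount of the limma alternative on tiles was 1 percentage point before the logit. A gene's count was that of its transcript with the highest total, for 29476 of 30048 accessions paired with a symbol, and CPM was taken over gene totals of 14385649 to 19806708.

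The members, sets and marker lists were chosen with earlier results of these data known. Named tiles followed the rule given with the sequences, and named chromosomes were the 3 with the largest and the 3 with the smallest change in the any-level tiles. Chromosome 4 was named after its values were seen. Other coverage minimums, site minimums, distances, level rules, grids and left-out libraries were tried.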

Additional observations from a re-analysis of the deposited data

How the results depend on the processing

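Replicate numbers were not taken as pairs in the main tests, and whether equal numbers mark the same source is not known. Over all tiles, the deviations of same-numbered libraries correlated at only 0.011, 0.031 and 0.008, which does not exclude a pairing. In the RNA libraries, the adipocyte, macrophage and low endothelial marker sums ranked the replicate numbers alike in both weeks. The chondrocyte sum did not. Week 1 replicates 1 and 2 correlated best with the Week 3 library of their own number, and Week 1 replicate 3 with Week 3 replicate 1 (0.017). With the replicate number as a block, an exact sign-flip permutation over the 3 numbered pairs gave p = 0.25 for the any-level change of -0.944 points, the smallest they allow, and 0 tiles and 0 chromosomes were called by limma with the block, so no call changed. Leaving out each library in turn, tiles were chosen again by the Week 1 libraries that were left. Their change ranged from -1.64 points (1622 tiles, without Week 1 replicate 1) to -1.28 points (1647 tiles, without Week 3 replicate 1). It was -1.48 points in the 1620 tiles chosen without Week 1 replicate 2. The -1.64 points are thus not a change of the same 1647 tiles. The any-level change ranged from -1.12 to -0.743 points, the gene-density difference from -0.752 to -0.252 and the denser-tile difference from -0.368 to -0.150. With the 1647 tiles kept, those lower at Week 3 ranged from 880 to 1013. Lower chromosomes ranged from 18 to 19, and the level rule on all 6 libraries left 16 lower chromosomes and 911 lower tiles. Tiles called ranged from 0 to 5 over all 71230 (2, 5 and 3 without Week 3 replicates 1, 2 and 3), with 0 of the 1647 called each time. The difference between and inside genes ranged from -0.179 to 0.059 points, turning to 0.059, 0.054 and 0.041 without Week 1 replicates 1 and 2 and Week 3 replicate 1, and the context difference from -0.339 (without Week 3 replicate 2) to 0.650. Near median 1 ranged from -2.93 to 0.210 points, turning without Week 1 replicate 3. At a coverage of 20 or more, the change was -1.08 points in the 260 tiles left and -1.003 (exact permutation p = 0.2) in the any-level tiles, falls 2 and 4 moved to -7.16 and -19.4, the gene-density difference turned to 0.490, between minus inside genes to 0.124, the context difference to -0.478, and the relative changes of chromosomes 6, 12 and 8 to 2.01, -0.753 and -0.316. Pooling reads turned the context difference to -0.677. The level rule on all 6 libraries gave -0.757 points, on Week 3 -0.166, on 5 libraries -1.12, and on Week 1 replicate 1 or 2 alone -1.11 or -0.813. The any-level change was -0.483 points with 5 or more cytosines (333 tiles), -1.29 from 50 kb (870 tiles) and -0.624 without cytosines in CCGG (250 tiles, exact permutation p = 0.4). The cause of these shifts was not tested. Read counting alone gives an SD of 2.83 points for the change of a tile, and the spread between libraries of the same week gives 5.64 points. Changes of single tiles within that larger spread cannot be resolved with these libraries.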
